A study of Mus musculus with 4 samples.

Results

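The 9 genes described here encode the subunits of the AMPA receptors (Gria1 to Gria4) and the kainate receptors (Grik1 to Grik5), and were taken by gene name from the 56035 gene rows of an RNA-seq table of the mouse trigeminal ganglion. The table holds 2 libraries from Trpv1 K823R mice, which carry arginine in place of a lysine of the heat- and capsaicin-gated channel TRPV1, and 2 libraries from wild-type (WT) littermates. All mice were C57BL/6 males 8 weeks old. The labels call the mutant both a transgenic and a knock-in, and no separate allele or agent is named for either group. The series concerns TRPV1 SUMOylation and itch, and the comparison asks how ganglion transcripts differ between the genotypes. The protocol mentions 2 pairs of ganglia but does not say how animals were divided among libraries, so any p-value below reflects how far these libraries vary, and that variation may be technical.

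AMPA and kainate receptors are tetrameric cation channels opened by glutamate. The subunits GluA1 to GluA4 assemble into AMPA receptors, which carry most fast excitatory transmission. GluK1, GluK2 and GluK3 form kainate receptors, and GluK4 and GluK5 join them only as partners in mixed channels. In sensory ganglia kainate receptors containing GluK1 are known from small-diameter neurons, and both families are also found on the central terminals of sensory neurons. GluK2 is itself known to be SUMOylated in neurons. A residue of the pore loop, the Q/R site, sets calcium permeability. In GluA2 its glutamine codon is recoded to arginine in the RNA by the deaminase ADAR2, and GluK1 and GluK2 are edited in part at the same place.

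The coding stretch around the Q/R codon is shown because it is the position at which the subunits are best known to differ in function. Each line gives 51 bases of the sense strand from a GENCODE M21 transcript (GRCm38), 5′ to 3′, with the Q/R codon in capitals.
Gria1: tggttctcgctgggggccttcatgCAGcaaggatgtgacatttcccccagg
Gria2: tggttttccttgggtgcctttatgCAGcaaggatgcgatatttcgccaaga
Gria3: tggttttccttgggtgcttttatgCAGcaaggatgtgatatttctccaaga
Gria4: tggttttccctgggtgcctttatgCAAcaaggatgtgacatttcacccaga
Grik1: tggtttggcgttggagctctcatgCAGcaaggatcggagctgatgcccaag
Grik2: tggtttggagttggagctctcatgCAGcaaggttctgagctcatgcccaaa
Grik3: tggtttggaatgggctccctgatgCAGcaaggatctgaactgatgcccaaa
Grik4: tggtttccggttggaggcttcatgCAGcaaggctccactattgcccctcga
Grik5: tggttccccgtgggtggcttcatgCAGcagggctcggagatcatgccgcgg

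The reference codon was CAG in 8 of the 9 genes and CAA in Gria4, and both codons encode glutamine. The codon of Gria2 is number 607 of its coding sequence and lies in exon 11 at chr3:80706911-80706913 on the minus strand. That of Grik1 is number 636, in exon 13 at chr16:87940542-87940544, and that of Gria4 is number 608, in exon 12 at chr9:4464137-4464139, both on the minus strand. Over these 51 bases Gria2 and Gria3 were the most alike pair, with 94.1% identity, followed by Grik1 and Grik2 with 90.2%. Over the whole aligned coding sequence, identity ran from 68.7% to 72.8% within the AMPA family and from 55.8% to 72.2% within the kainate family. Between the families it ran from 54.6% to 58.7%. No member's longest coding transcript matched a transcript of another gene over at least 100 bases at 95% identity or more. TPM values hold no sequence, so editing at this codon was not analysed here.

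The deposited values are TPM, a relative abundance that divides reads by transcript length and scales each library to the same total, so levels can be compared between genes but read depth is unknown. The libraries listed 15131 to 15371 genes at 1 TPM or more. Trpv1 stood at 40.92 and 35.01 TPM in K823R, against 39.17 and 30.62 TPM in WT, and its level does not test for the codon change. The 8 sensory neuron markers were present in every library, with sums of 12373 to 12866 TPM in K823R and 11653 to 13328 TPM in WT. WT replicate 1 stood apart for transcripts of central glia and of several non-neuronal cell types. The 7 oligodendrocyte markers summed to 207 and 262 TPM in K823R, against 27.1 TPM in WT replicate 1 and 178 TPM in WT replicate 2. The 6 astrocyte markers summed to 107 and 109 TPM in K823R, against 28.4 and 93.3 TPM in WT, and defining markers were near 0 in WT replicate 1 (Mog 0 TPM, Mobp 2.31 TPM, Gfap 3.72 TPM). Markers of central neurons other than Slc17a7, a vesicular glutamate transporter that sensory neurons also use, were at most 0.58 TPM in any library, with Chat listed at 0 throughout. All 7 fibroblast and meninges markers, all 7 macrophage markers and all 5 endothelium markers were lowest in WT replicate 1. The fibroblast and meninges markers summed to 2837 and 898 TPM in K823R, against 341 and 1068 TPM in WT, the macrophage markers to 87.0 and 115 TPM in K823R, against 52.95 and 83.9 TPM in WT, and the endothelium markers to 86.7 and 78.6 TPM in K823R, against 63.97 and 83.1 TPM in WT. The sum of the 5 pituitary markers was higher in both K823R libraries, at 23.0 and 19.6 TPM, against 2.54 and 4.47 TPM in WT. Most of that sum in K823R was Gh, at 17.08 and 12.03 TPM, against 0.25 and 1.15 TPM in WT. Prl was also higher in both K823R libraries, while Pomc and Tshb overlapped between the genotypes and Lhb was listed at 0 throughout.

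All 9 receptor genes were expressed, and the kainate subunit gene Grik1 was the most abundant. Grik1 (ENSMUSG00000022935; chromosome 16, 87895900 to 88290265, minus strand) stood at 92.37 and 89.05 TPM in K823R, against 95.80 and 83.69 TPM in WT. Gria4 (ENSMUSG00000025892; chromosome 9, 4417896 to 4796234, minus strand), the AMPA subunit of rapid gating, came next at 40.59 and 39.92 TPM in K823R, against 44.62 and 43.98 TPM in WT. Every library of Grik1 lay above every library of Gria4, and every library of Gria4 above those of the other 7 genes.

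The kainate partner subunits followed. Grik4 (chromosome 9, 42518135 to 42944493, minus strand), which encodes GluK4, stood at 20.69 and 19.52 TPM in K823R, against 19.10 and 16.53 TPM in WT. Grik5 (chromosome 7, 25009849 to 25072346, minus strand), which encodes GluK5, stood at 19.99 and 16.85 TPM in K823R, against 18.96 and 16.47 TPM in WT. Grik4 was above Grik5 in 4 of 4 libraries, though the ranges over libraries overlapped. The ratio of Grik4 to Grik5 was 1.035 and 1.16 in K823R and 1.007 and 1.004 in WT. The order of this pair was not tested.

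The remaining 5 genes lay below 10 TPM. Gria2 (chromosome 3, 80681450 to 80802835, minus strand), whose edited product limits calcium entry, stood at 8.71 and 8.30 TPM in K823R, against 9.07 and 7.49 TPM in WT. Gria3 (chromosome X, 41400854 to 41678601, plus strand) stood at 6.56 and 7.80 TPM in K823R, against 6.42 and 7.72 TPM in WT. In both genotypes replicate 2 was the higher library for Gria3.

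Grik3 (chromosome 4, 125490700 to 125714173, plus strand), a kainate subunit of low glutamate sensitivity, stood at 6.54 and 6.16 TPM in K823R, against 7.30 and 6.92 TPM in WT. The ranges of Gria2 and Gria3 overlapped, as did those of Gria3 and Grik3, and all 3 lay above the last pair in every library. Grik2 (chromosome 10, 49094833 to 49788766, minus strand), the SUMO substrate mentioned above, stood at 3.76 and 4.21 TPM in K823R, against 3.56 and 3.96 TPM in WT. Gria1 (chromosome 11, 57011387 to 57330244, plus strand), a subunit of synaptic plasticity in the brain, stood at 3.94 and 4.78 TPM in K823R, against 3.16 and 3.42 TPM in WT. Grik2 and Gria1 overlapped and exchanged order between libraries.

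**Figure D1:**
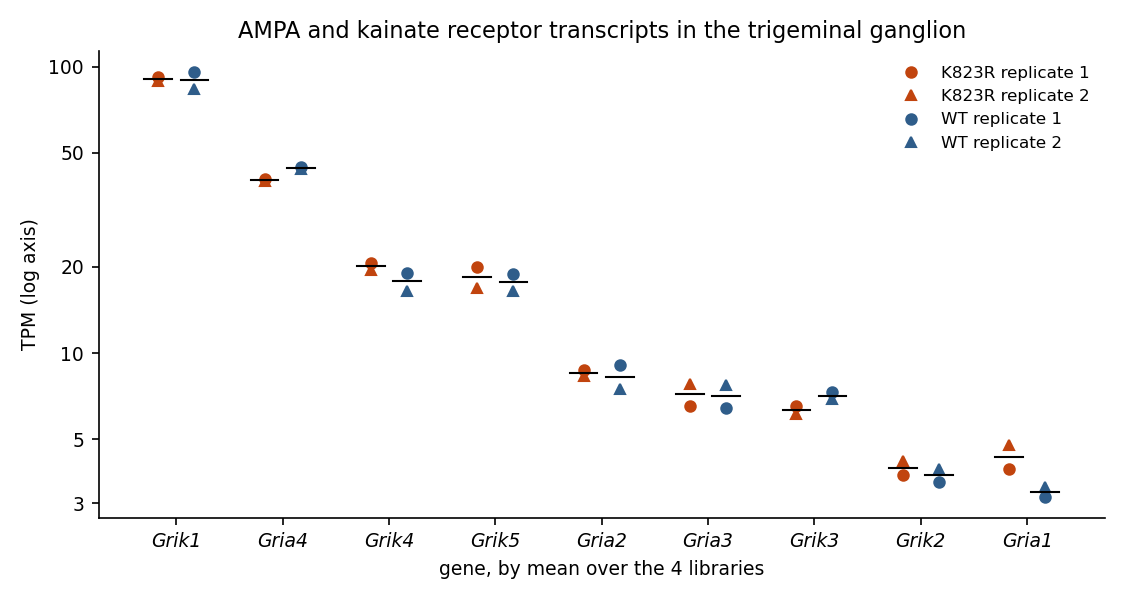
TPM of each receptor gene (log axis) in the 2 K823R and 2 WT libraries; points are libraries and short lines are group means. Grik1 lies between 83.69 and 95.80 TPM and Gria4 between 39.92 and 44.62 TPM, above the other 7 genes in every library.

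Among the 15390 genes averaging 1 TPM or more over the 4 libraries, Grik1 ranked 1913 and Gria4 ranked 3837 by mean level, while Gria1 ranked 12127. These ranks and the order above rest on the transcript length behind each TPM. The deposited length equalled that of an annotated transcript for 9 of 9 genes. Annotated transcripts ran from 1394 to 3655 bases for Grik1 and from 539 to 9427 bases for Grik2. Gria2 was listed at 10371 bases, the longest of its transcripts, which ran from 1975 bases upward. Gria3 was listed at 3081 bases, with transcripts from 322 to 5206 bases. The AMPA shares and ratios given below rest on these lengths as well. For 4 genes (Gria2, Gria3, Gria4 and Grik4) some exon bases are shared with an annotated small RNA gene of the same strand, and each of those was listed at 0 TPM in every library.

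Within each family a single subunit held about the same large share in every library. Gria4 made up 67.9% and 65.7% of the summed AMPA subunit TPM in K823R, against 70.5% and 70.2% in WT. Gria2 made up 14.6% and 13.7% in K823R, against 14.3% and 11.96% in WT, so that Gria4 was 4.66 and 4.81 times as abundant as Gria2 in the K823R libraries and 4.92 and 5.87 times in the WT libraries. Gria1 had the smallest AMPA share, 6.59% and 7.86% in K823R and 4.99% and 5.46% in WT. The Gria4 share was lower in both K823R libraries than in both WT libraries, with a difference of means of -3.62 percentage points, and the Gria1 share was higher in both, by 1.997 points. The kainate shares of Grik3 were likewise lower in both, at 4.56% and 4.54% in K823R and 5.04% and 5.42% in WT. Shares within a family depend on each other, so a lower Gria4 share goes with a higher sum of the other AMPA shares. Mean shares of Gria2 and Gria3 were also higher in K823R, by 0.959 and 0.661 points, though their libraries overlapped.

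Grik1 made up 64.4% and 65.6% of the summed kainate subunit TPM in K823R, against 66.2% and 65.6% in WT. The partner subunits Grik4 and Grik5 together made up 28.4% and 26.8% in K823R, against 26.3% and 25.9% in WT. Most of that difference lay in Grik4, at 14.43% and 14.38% in K823R and 13.20% and 12.96% in WT. The kainate subunits summed to 140 ± 5.35 TPM in K823R and 136 ± 12.1 TPM in WT, and the AMPA subunits to 60.3 ± 0.707 TPM in K823R and 62.9 ± 0.467 TPM in WT (SD, n = 2 each). The kainate sum was 2.40 and 2.23 times the AMPA sum in the K823R libraries and 2.29 and 2.04 times in the WT libraries. For any such single value an exact permutation test of 2 libraries against 2 cannot give a two-sided p under 0.333, so shares and sums are given without a test.

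**Figure D2:**
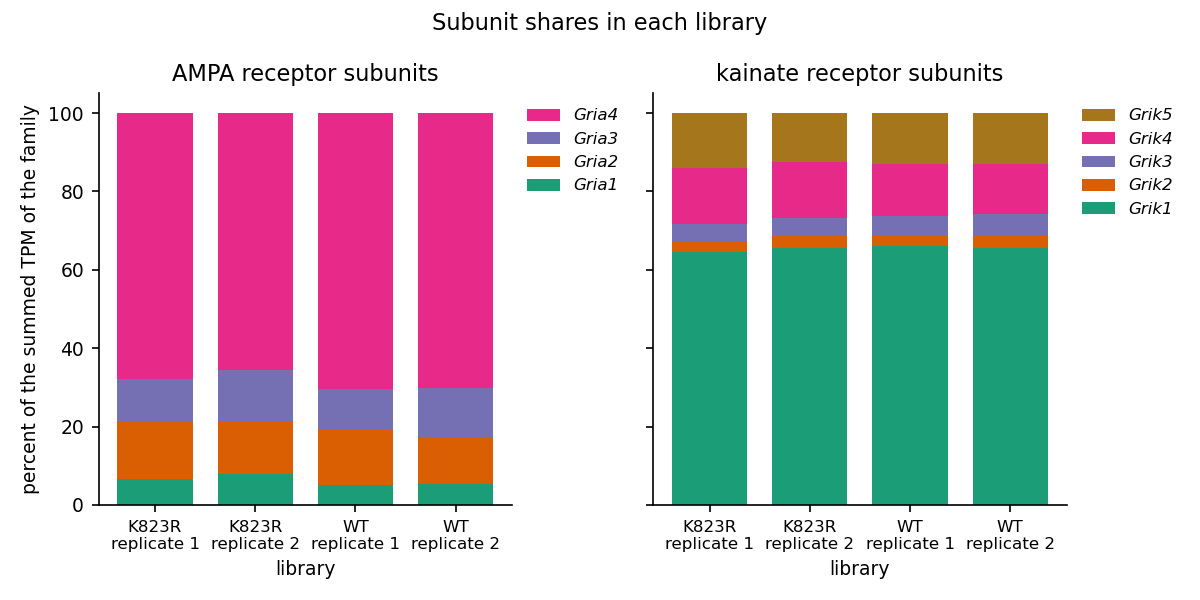
Percent of the summed TPM of each receptor family held by each subunit gene in each library (stacked bars, AMPA left, kainate right). Gria4 holds 65.7% to 70.5% of the AMPA sum and Grik1 64.4% to 66.2% of the kainate sum.

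No receptor gene passed the test between the genotypes. With limma on log2(TPM + 1), fitted to all 15390 genes and adjusted by Benjamini-Hochberg, 0 of the 9 genes had an adjusted p below 0.05, against 0.00650% of all genes tested. That background is a single gene, the processed pseudogene Gm43110 (adjusted p = 0.0140). At an unadjusted p under 0.05 limma called 0 of 9 receptor genes, against 4.76% of all genes. The log2 difference, K823R minus WT, was above 0 for 7 of the 9, against 57.4% of all genes, and the signs of Gria2, Gria3 and Grik1 turned negative under quantile normalization, those of Gria3 and Grik1 also under median-of-ratios scaling. The median over the 9 was 0.039, against 0.026 over all genes tested.

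Gria1 had the widest difference among the 9 receptor genes, and its lower K823R library exceeded its higher WT library. It averaged 4.36 ± 0.594 TPM in K823R and 3.29 ± 0.184 TPM in WT (SD, n = 2 each), a log2 difference of 0.32 (standard error, SE, 0.17; 95% interval -0.12 to 0.75; limma adjusted p = 0.918). Gria1 was lowest in WT replicate 1, as were Gria3 and Grik2, whose libraries overlapped between the genotypes. Also lowest there were the marker sums of oligodendrocytes, astrocytes, oligodendrocyte precursors, myelinating Schwann cells, macrophages and pituitary. Each of these 6 sums was also higher in both K823R libraries. The fibroblast and meninges sum and the endothelium sum were lowest in WT replicate 1 too, but their libraries overlapped between the genotypes. Of the markers in those 6 sums, both K823R libraries were the higher ones for 5 of 7 oligodendrocyte, 5 of 6 astrocyte and 2 of 5 precursor genes. The same held for 4 of 6 Schwann cell, 3 of 7 macrophage and 2 of 5 pituitary genes. Over all genes tested that share was 19.4%. The precursor markers summed to 17.1 and 16.6 TPM in K823R, against 8.28 and 14.7 TPM in WT, and the Schwann cell markers to 10189 and 11999 TPM in K823R, against 8674 and 9908 TPM in WT. Their part in the Gria1 difference was not tested. That difference became 0.27 when WT replicate 1 was left out, 0.36 when WT replicate 2 was, 0.43 when K823R replicate 1 was left out and 0.20 when K823R replicate 2 was. In bulk tissue, fewer cells of a type and less RNA per cell cannot be told apart.

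Gria4 differed the other way, with both K823R libraries below both WT libraries. It averaged 40.3 ± 0.474 TPM in K823R and 44.3 ± 0.453 TPM in WT (SD, n = 2 each), a log2 difference of -0.13 with SE 0.074 and a 95% interval of -0.33 to 0.060 (limma adjusted p = 0.918). It was the tightest interval of the 9, and the sign stayed negative in each of the 13 alternative settings run, between -0.16 and -0.12. Grik3 was also lower in both K823R libraries (log2 difference -0.14, SE 0.12, 95% interval -0.45 to 0.17, limma adjusted p = 0.918), while Grik4 was higher in both (0.17, SE 0.11, 95% interval -0.12 to 0.46, limma adjusted p = 0.918). The Grik4 difference was 0.070 without WT replicate 2 and 0.27 without WT replicate 1. The groups thus did not overlap with K823R higher for 2 of the 9 genes, against 19.4% of all genes, and with K823R lower for 2 of 9, against 14.6%.

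For the other 5 genes the libraries of the genotypes overlapped. Grik1 had a log2 difference of 0.018 and a 95% interval of -0.23 to 0.26 (limma adjusted p = 0.989), and the WT libraries of Grik1 enclosed both K823R libraries. Gria2 had a difference of 0.039 (95% interval -0.31 to 0.39), Gria3 one of 0.020 (-0.38 to 0.42), Grik2 one of 0.066 (-0.34 to 0.47) and Grik5 one of 0.052 (-0.29 to 0.40), with limma adjusted p from 0.970 to 0.992. Their intervals do not exclude changes of that size in either direction. Leaving out 1 library changed the sign of 4 of these genes. Without WT replicate 2 the difference was -0.084 for Gria2, -0.078 for Grik1 and -0.044 for Grik5. Without K823R replicate 1 it was -0.0079 for Grik1 and -0.065 for Grik5. Gria3 stood at -0.096 without WT replicate 1 and at -0.0895 without K823R replicate 2. Grik2 stayed above 0 but stood at 0.0013 without K823R replicate 2 and 0.0058 without WT replicate 1, and at 0.13 without WT replicate 2 or without K823R replicate 1. The Grik1 libraries followed the order of the sensory neuron marker sums, highest in WT replicate 1 and lowest in WT replicate 2, as did those of Gria2.

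**Figure D3:**
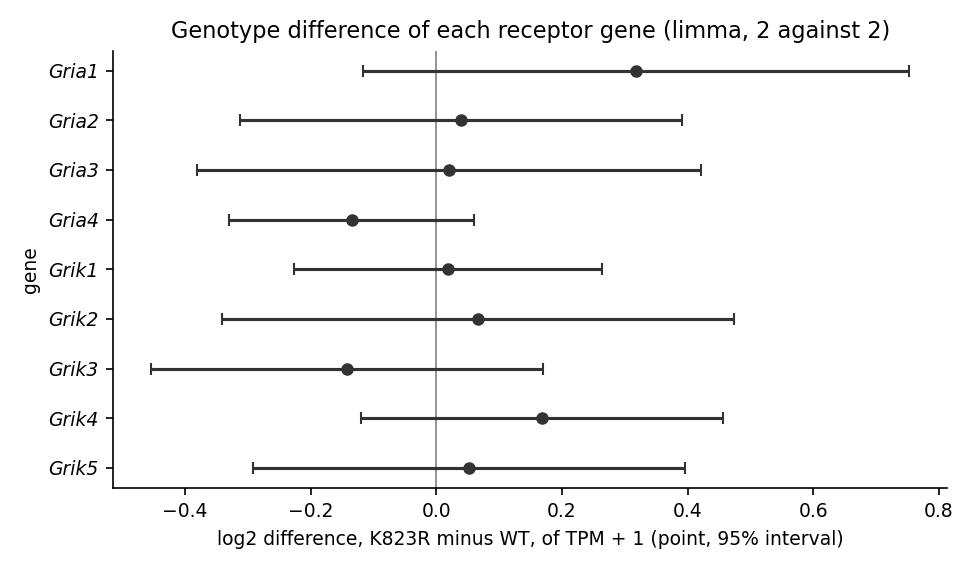
Log2 difference, K823R minus WT, of TPM + 1 for each receptor gene, with its 95% interval from limma. All 9 intervals include 0, the narrowest for Gria4 (-0.33 to 0.060) and the widest for Gria1 (-0.12 to 0.75).

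**Figure D4:**
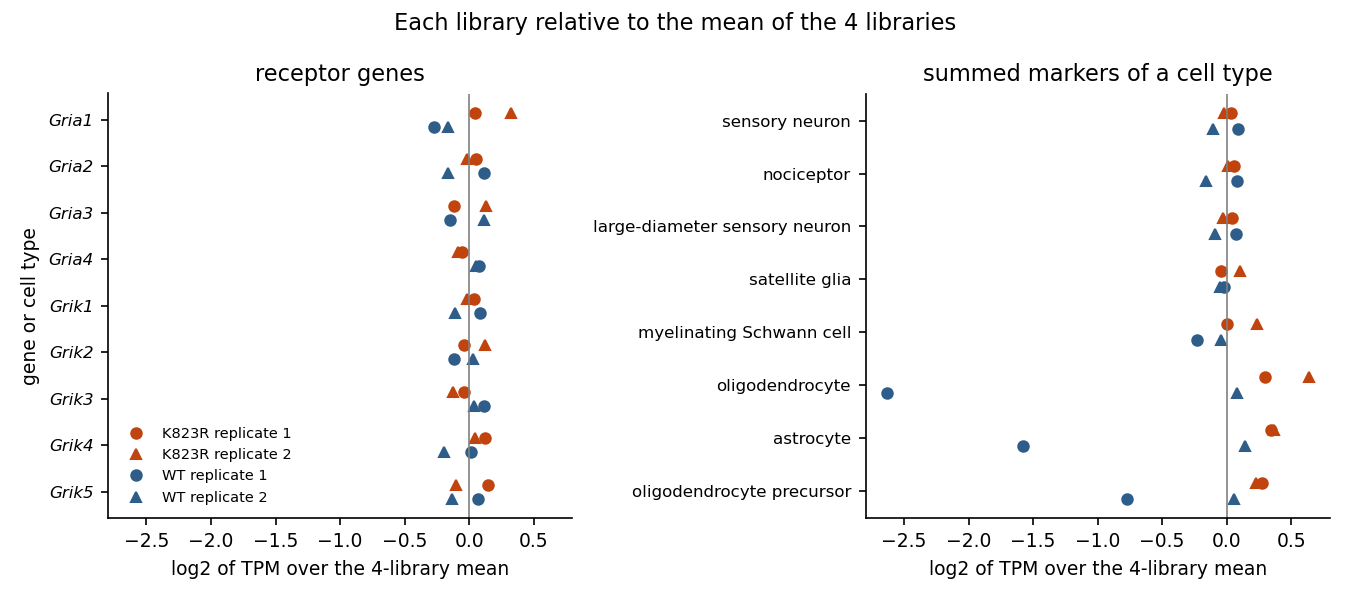
Log2 of each library's TPM over the mean of the 4 libraries, for the 9 receptor genes (left) and the summed markers of 8 cell types (right). The receptor genes stay between -0.28 and 0.32, while the oligodendrocyte sum falls to -2.63 and the astrocyte sum to -1.58 in WT replicate 1.

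The genes that work with these receptors, and the other glutamate receptors, did not pass the test either. In 7 lists, 47 partner and other receptor genes were tested. At an adjusted p below 0.05 limma called 0 of them, against 0.00650% of all genes. At an unadjusted p under 0.05 limma called 0, against 4.76% of all genes. The difference was above 0 for 34 of the 47, against 57.4% of all genes. Their median was 0.086, against 0.026 over all genes tested. The libraries of 16 of the 47 did not overlap between the genotypes, against 34.0% of all genes. Klhl17, a kainate receptor binding protein, was not analysed here.

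Auxiliary subunits of AMPA receptors were led by a gene of the transmembrane regulatory proteins that reside beside the pore. Cacng7, which encodes gamma-7, stood at 87.09 and 78.61 TPM in K823R, against 86.40 and 70.26 TPM in WT. Cacng2, which encodes stargazin, the family's founding member in the brain, was scarcer at 4.38 and 3.67 TPM in K823R, against 3.29 and 3.87 TPM in WT, and was named after its values were seen. Of 12 tested members 10 had a difference above 0, against 57.4% of all genes. The median of the 12 was 0.10, and it became 0.022 without K823R replicate 1 and 0.051 without WT replicate 1. Cacng3, which encodes gamma-3, had the smallest p of them, at 3.30 and 1.99 TPM in K823R, against 1.39 and 2.04 TPM in WT (log2 difference 0.41, limma adjusted p = 0.918). Cacng4, which encodes gamma-4, stood at 5.71 and 5.49 TPM in K823R, against 6.39 and 6.15 TPM in WT (log2 difference -0.14, limma adjusted p = 0.919). Shisa6, whose product binds AMPA receptors in the mouse brain, stood at 8.46 TPM in K823R replicate 2, against 0.94 TPM in K823R replicate 1 and 1.09 and 0.88 TPM in WT. The Shisa6 log2 difference of 1.11 therefore came from a single library and had a 95% interval of -0.92 to 3.15.

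Among the 8 listed genes of AMPA receptor assembly, mean levels over the 4 libraries ran from 3.51 TPM for Rap2b to 343 TPM for Abhd12. Abhd12, a membrane lipid hydrolase, stood at 357 and 333 TPM in K823R, against 369 and 313 TPM in WT. The phosphoinositide phosphatase gene Sacm1l had the smallest p of the list and was lower in both K823R libraries, at 90.04 and 84.05 TPM in K823R and 96.58 and 93.83 TPM in WT (log2 difference -0.13, limma adjusted p = 0.918). The neuronal carnitine palmitoyltransferase gene Cpt1c averaged 30.7 ± 2.16 TPM in K823R and 28.3 ± 1.55 TPM in WT, and the acyltransferase gene Porcn 22.6 ± 1.96 TPM in K823R and 20.3 ± 3.89 TPM in WT (SD, n = 2 each). Of 8 tested members 5 had a difference above 0, against 57.4% of all genes. The median was 0.042, but leaving out WT replicate 2 gave -0.062, leaving out K823R replicate 1 gave -0.0098 and leaving out WT replicate 1 gave 0.12.

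The auxiliary subunits of kainate receptors were scarce beside Grik1. Neto2, which slows kainate receptor gating, stood at 4.79 and 5.43 TPM in K823R, against 5.18 and 4.38 TPM in WT. Neto1 varied within both genotypes, at 1.35 and 2.47 TPM in K823R and 1.43 and 3.73 TPM in WT. C1ql3, a secreted synaptic organizer, was lower in both K823R libraries, at 1.48 and 1.82 TPM in K823R and 2.49 and 2.15 TPM in WT (log2 difference -0.33, limma adjusted p = 0.918). Of the 3 members tested, 1 had a difference above 0, against 57.4% of all genes, and the median of the 3 was -0.25. That median was -0.018 without WT replicate 2, 0.0335 when K823R replicate 1 was left out and -0.42 when K823R replicate 2 was.

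Scaffold and trafficking genes of both receptor families included very abundant members. Nsf, the membrane fusion ATPase that also binds GluA2, stood at 234 and 215 TPM in K823R, against 242 and 202 TPM in WT. Syndig1, which encodes a postsynaptic membrane protein associated with AMPA receptors, was lower in both K823R libraries, at 8.45 and 9.24 TPM in K823R and 11.59 and 10.26 TPM in WT (log2 difference -0.28, limma adjusted p = 0.918). Its relative Prrt1 was higher in both, at 12.09 and 10.95 TPM in K823R and 10.64 and 8.07 TPM in WT (log2 difference 0.28, limma adjusted p = 0.918). Dlg4, which encodes the scaffold PSD-95, averaged 114 ± 1.49 TPM in K823R and 101 ± 13.3 TPM in WT (SD, n = 2 each; limma adjusted p = 0.918). Of 15 tested members 12 had a difference above 0, against 57.4% of all genes. The median was 0.12, and it was -0.075 if WT replicate 2, 0.040 if K823R replicate 1 and 0.215 if WT replicate 1 was left out.

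Genes of the adenosine deaminases acting on RNA were present in every library. Adarb1, which encodes ADAR2, the enzyme of the Q/R site, stood at 41.94 and 39.03 TPM in K823R, against 45.32 and 37.01 TPM in WT, a log2 difference of -0.017 with a 95% interval of -0.34 to 0.31 (limma adjusted p = 0.992). Adar, the related gene for ADAR1, was higher in both K823R libraries, at 26.07 and 24.28 TPM in K823R and 23.97 and 19.96 TPM in WT (log2 difference 0.19, limma adjusted p = 0.918). Adarb2, a catalytically silent relative of the brain, reached at most 1.19 TPM and had a mean under 1 TPM.

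Of the other ionotropic receptors, the NMDA subunit gene Grin1 lay between Grik1 and Gria4 in level. Grin1, which encodes the obligatory NMDA receptor subunit, stood at 65.79 and 62.38 TPM in K823R, against 62.11 and 57.52 TPM in WT, and its K823R libraries were the higher ones (log2 difference 0.098, limma adjusted p = 0.918). The 4 GluN2 subunit genes, with which GluN1 forms the conventional receptor, were all under 1 TPM, and were named after their values were seen. Grin2a and Grin2b were at most 0.01 and 0.03 TPM in any library, Grin2c at most 0.53 TPM and Grin2d at most 0.84 TPM. Grin3a, a subunit of glycine-binding NMDA receptors, averaged 5.08 ± 0.679 TPM in K823R and 5.11 ± 0.0636 TPM in WT (SD, n = 2 each; log2 difference -0.010, limma adjusted p = 0.997).

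The metabotropic receptors at 1 TPM or more were all members of group III, presynaptic receptors that inhibit transmitter release. Grm7 stood at 19.25 and 17.75 TPM in K823R, against 18.89 and 14.98 TPM in WT. Grm4 stood at 19.40 and 18.26 TPM in K823R, against 17.86 and 14.76 TPM in WT. Grm8 stood at 8.22 and 7.35 TPM in K823R, against 6.32 and 5.85 TPM in WT, and its unadjusted p of 0.0614 was the smallest of the 47 (log2 difference 0.31, SE 0.13, 95% interval -0.022 to 0.64, limma adjusted p = 0.918). The libraries did not overlap for Grm4 and Grm8, with K823R higher, against 19.4% of all genes. The differences were above 0 for 3 of the 3 tested, against 57.4% of all genes. Their median was 0.20, against 0.026 over all genes tested. The median of the 3 was 0.072 without WT replicate 2 and 0.33 without WT replicate 1. Grm2, Grm3, Grm5 and Grm6 were at most 0.94 TPM in any library.

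**Figure D5:**
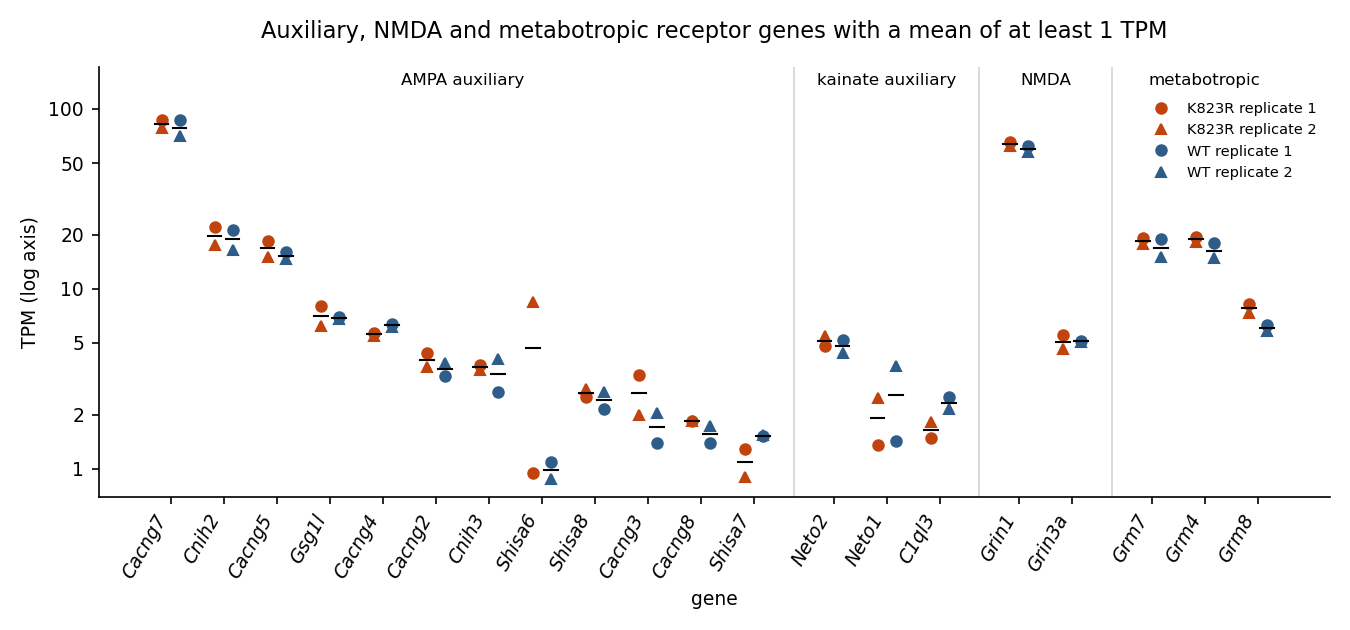
TPM (log axis) of auxiliary subunits, NMDA receptor subunits and metabotropic receptor genes averaging 1 TPM or more, by library; short lines are group means. Cacng7 and Grin1 lie highest, and the K823R replicate 2 point of Shisa6 (8.46 TPM) lies apart from its other 3 libraries.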

How the data were processed

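Messenger RNA of whole trigeminal ganglia was sequenced as paired reads, per the labels' protocols, and the 2 K823R and 2 WT libraries were grouped by their sample names. Per the submitters' processing notes, the tools were fastp 0.19.5, RSEM, HISAT2 and edgeR, with the build GRCm38.p6; the annotation, any filter and the strand setting were not stated. The authors deposited TPM per gene and library, from which depth cannot be recovered. Their 2 mean columns were not used.

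The 15390 genes averaging 1 TPM or more were tested with limma 3.58.1 in R 4.3.3 on log2(TPM + 1) with a variance trend, two-sided, Benjamini-Hochberg adjusted, threshold 0.05; the script was tested on simulated data. Such differences understate changes of low genes. The 9 genes and the partner lists were chosen with earlier results of these data known. Named were the 9 genes, Trpv1, and from each list the most abundant gene and up to 3 with the smallest p; some listed genes are not reported here. Positions, transcripts and coding sequences came from GENCODE M21, which matched 9 of 9 identifiers and names; copies were searched with BLAST 2.17.0, and tables and plots used pandas 2.3.3, Biopython 1.88 and matplotlib 3.10.9.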

Additional observations from a re-analysis of the deposited data

How the results depend on the processing

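In each of the 13 alternatives 0 of the 9 receptor genes passed the threshold, and the smallest adjusted p of any of them was 0.656. Over all genes, the count of 1 became 0 with no filter on low values, with the replicate block, without a variance trend, and without any single library (0 to 0). Of 117 receptor gene differences recomputed, 12 changed sign. With median-of-ratios scaling Gria3 was -7.32e-05 and Grik1 -0.0044. With quantile normalization Gria2 was -0.0045, Gria3 -0.015 and Grik1 -0.0083. Leaving out a library, the differences ran from -0.084 to 0.16 for Gria2, -0.096 to 0.14 for Gria3, -0.078 to 0.115 for Grik1 and -0.065 to 0.17 for Grik5; the cause was not tested. Gria1, Gria4, Grik2, Grik3 and Grik4 kept their sign in all 13, though Grik2 came as low as 0.0013 and Gria1 ranged from 0.20 to 0.43 with a library left out. The Gria4 share difference ran from -4.73 to -2.51 percentage points. Scaling to the sensory neuron markers, chosen after seeing the data, changed no sign. The replicate numbers are not said to pair animals, and replicate 1 minus 2 correlated at 0.050 over genes between the genotypes; with the replicate block 0 genes passed. Unknown depth limits what can be said of genes near 1 TPM.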

Other observations

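Grik1 was set against the sum of the 8 sensory neuron markers (Prph, Uchl1, Tubb3, Isl1, Pou4f1, Rbfox3, Snap25 and Nefl). It had nearly the same ratio in all libraries. It stood at 7.180 and 7.197 TPM per 1000 TPM of the markers in K823R, against 7.188 and 7.182 in WT, a spread (SD over mean) of 0.109%, where its TPM alone spread by 5.72%. Among 9084 genes averaging 10 TPM or more, the markers left out, this was the smallest spread, against a median of 7.68%. The ratio was formed after the values were seen, and with 4 libraries some gene must be the smallest. Most of the marker sum came from Uchl1, Nefl, Tubb3, Prph and Snap25. Isl1, Pou4f1 and Rbfox3 were each at most 146.43 TPM in any library, and not every marker followed the library order of Grik1. Against the 9 nociceptor markers the spread of Grik1 was 2.56%, and against the 8 large-diameter neuron markers 1.14%. By the same ratio Gria2 spread by 2.57%, Grik5 by 5.68% and Grik4 by 6.46%, while Gria1 spread by 20.1% and Gria3 by 15.5%.

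Gria4 kept its separation on that scale, at 3.15 and 3.23 TPM per 1000 TPM of the markers in K823R, against 3.35 and 3.77 in WT. Grik4 did so as well, at 1.61 and 1.58 in K823R, against 1.43 and 1.42 in WT. So did Gria1, at 0.31 and 0.39 in K823R, against 0.24 and 0.29 in WT. Grik3 also stayed lower in K823R, at 0.51 and 0.50, against 0.55 and 0.59 in WT. These ratios rescale the same 4 libraries, so they add no separate evidence of a genotype difference. The share of all genes that did not overlap on this scale was not analysed here, and in TPM it was 34.0%.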
